A study of Mus musculus with 11 samples.

Results

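The 7 milk protein genes of the mouse were read out in periostin-lineage cells of the naive mammary gland: the caseins Csn3, Csn2, Csn1s1 and Csn1s2a, the whey proteins Wap and Lalba, and the mucin-like protein Glycam1. They were chosen by name, 1 probe each, as 7 of the 19965 endogenous probes of a whole-transcriptome panel. The panel was hybridised to paraformaldehyde-fixed frozen gland of 3 periostin lineage-tracing mice and read with digital spatial profiling (GeoMx), in which ultraviolet light releases the probe barcodes of a chosen area for sequencing. Every region held only the area segmented as positive for ZsGreen, the reporter of present or past periostin expression, so both groups share that reporter and that selection. The 6 Pdpn-adjacent regions (2, 3, 4, 7, 8 and 11) were placed by the podoplanin stain, a lymphatic vessel marker, and the 5 SMA-adjacent regions (1, 5, 6, 9 and 10) by the smooth muscle actin stain, which marks ducts and blood vessels. No region received a treatment. Strain, age, parity and the construct that drives the reporter are not given in the sources used here, and neither is the mouse of each region. With more regions in each group than mice, some regions share a mouse, and every p-value over regions below can be too small for that reason.

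Milk proteins are made by the secretory luminal cells of the alveoli, in bulk from late pregnancy through lactation. Prolactin, acting through its receptor Prlr, the kinase Jak2 and the transcription factors Stat5a and Stat5b, drives their genes together with glucocorticoid and the luminal factors Elf5 and Gata3. The caseins form calcium-carrying micelles, with kappa-casein (Csn3) as the coat that keeps them in solution. Alpha-lactalbumin (Lalba) is the subunit that turns a galactosyltransferase (B4galt1) into lactose synthase, and whey acidic protein (Wap) is a cysteine-rich protein of rodent whey. Glycam1 is secreted into mouse milk and is also made by the high endothelial venules of lymph nodes.

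All 4 casein genes lie in 1 cluster on chromosome 5 of GRCm38.p6. Csn1s1 spans 87666208 to 87682578, Csn2 87692619 to 87699429, Csn1s2a 87774450 to 87788798 and Csn3 87925579 to 87932550. The probes lie inside these genes, that of Csn3 at 87929839 to 87929874 and that of Csn2 at 87694896 to 87694935. Wap lies on chromosome 11 (probe 6638537 to 6638572), and Lalba (98481559 to 98481594) and Glycam1 (103563387 to 103563424) lie on chromosome 15. A probe position is the probe's target within the gene. Whether it falls in a coding exon or an untranslated one was not analysed here.

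RefSeq promoter sequences on GRCm38.p6 were at hand for 6 members (Csn2, Csn1s1, Csn1s2a, Wap, Lalba and Glycam1, not Csn3). The spacing TTCNNNGAA, which reads the same on both strands and is the core that STAT5-type factors bind, was searched in the 250 bases before each start. It stood in 3 of the 6, those of Csn2, Csn1s1 and Glycam1, and in 2306 of 32851 promoter windows of that length (7.02%). In Csn2 the match begins 93 bases and in Csn1s1 100 bases before the start. These 2 casein sequences are shown because they carry the match at nearly the same place, with the match in capitals, 5′ to 3′ in the direction of transcription. The first is chr5:87699426-87699675 on the minus strand and the second chr5:87665958-87666207 on the plus strand. A match is a description of the letters and not a measured binding site.
Csn2: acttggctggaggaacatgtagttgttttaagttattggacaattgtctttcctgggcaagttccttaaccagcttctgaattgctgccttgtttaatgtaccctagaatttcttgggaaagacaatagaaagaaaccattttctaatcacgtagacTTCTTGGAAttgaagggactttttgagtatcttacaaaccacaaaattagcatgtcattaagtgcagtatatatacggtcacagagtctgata
Csn1s1: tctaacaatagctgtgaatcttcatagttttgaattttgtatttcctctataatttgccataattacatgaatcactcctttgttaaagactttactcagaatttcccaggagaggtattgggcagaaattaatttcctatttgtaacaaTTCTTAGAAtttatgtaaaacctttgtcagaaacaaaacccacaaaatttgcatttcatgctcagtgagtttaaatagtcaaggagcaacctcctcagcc

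Depth set what could be seen. Total counts ran from 760761 to 3086323 in the SMA-adjacent regions and from 22757 to 2271664 in the Pdpn-adjacent ones. Regions 2, 3 and 11 held under 100000 counts, and the other 8, 3 of them Pdpn-adjacent (4, 7 and 8), are called the deeper regions here. The lowest value in the table is 1, and in region 2 all 7 members stood at 1, as did 17960 of all 19965 probes. In region 11, 4 members stood at 1. Over the deeper regions the fibroblast markers averaged 3.92 to 13.1 times the level of the negative-control probes, and the adipocyte markers 18.8 to 57.9 times, while lymphatic markers averaged 1.19 to 1.60 times, close to background next to the podoplanin stain as well.

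Milk protein transcripts were close to background in periostin-lineage areas. Background in a region is the geometric mean count of its 210 negative-control probes, which match no mouse transcript, and a level is given as a multiple of it. The floor of a region is the mean plus 2 SDs of these probes on the log2 scale, which came to 2.04 to 3.12 times background in the deeper regions. The median endogenous probe there stood at 1.17 to 1.53 times background. Of the 77 values (7 genes in 11 regions) 4 exceeded the floor, 5.19%, against 12.0% of the values of all endogenous probes and 4.46% of those of the negative probes themselves. In the deeper regions 1 of 56 did, 1.79% against 12.1% of all endogenous probes. That value was Csn3 in Pdpn-adjacent region 4, where 9.23% of all probes exceeded the floor. The other 3 were Csn3, Csn2 and Glycam1 in region 11, where they rest on 2, 2 and 3 counts, where 15.2% of the negative probes also exceeded the floor, and where 22.4% of all probes did. No member exceeded the floor in any SMA-adjacent region.

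**Figure D1:**
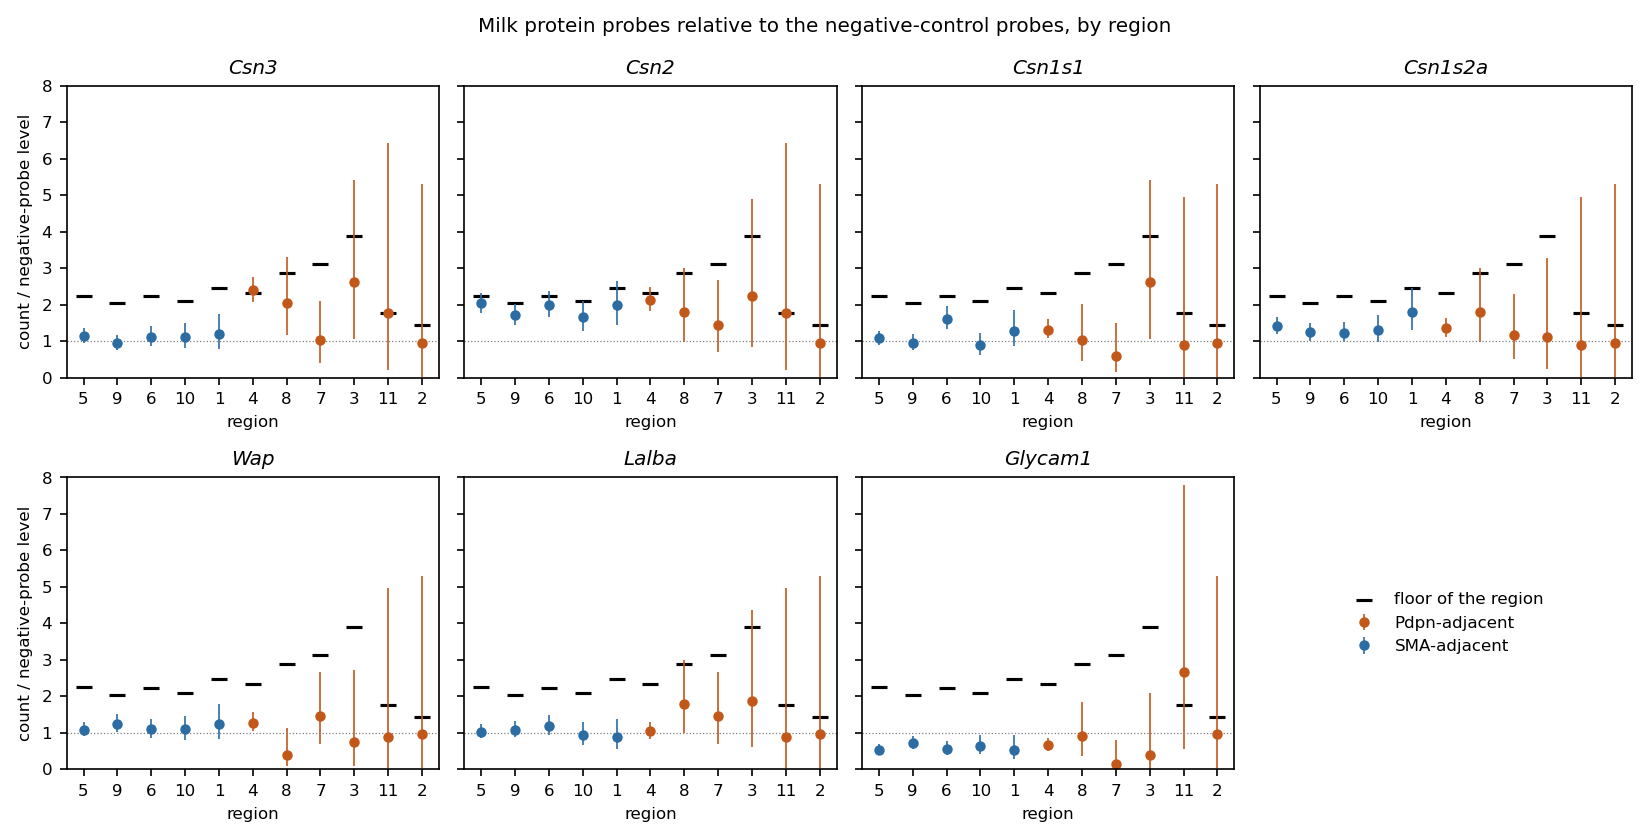
Count of each milk protein probe divided by the negative-probe level, for each region on the x axis (SMA-adjacent in blue, Pdpn-adjacent in orange, each from deepest to shallowest), with exact 95% Poisson intervals for counting error. Black bars mark the floor of each region and the dotted line marks background; Csn3 in region 4 is the 1 point above its bar among the deeper regions.

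Csn3, which encodes kappa-casein, was raised in 2 of the deeper regions. In the Pdpn-adjacent regions 4 and 8 its level was 2.40 and 2.04 times background (184 and 16 counts). In Pdpn-adjacent region 7 it was 1.02 times (7 counts). The SMA-adjacent regions 1, 5, 6, 9 and 10 gave 1.19, 1.14, 1.12, 0.938 and 1.12 times, on 27, 127, 72, 81 and 44 counts. Regions 4 and 8 thus stood above all 5 SMA-adjacent regions, and region 7 lay within their range. The shallow Pdpn-adjacent regions 2, 3 and 11 gave 0.952, 2.63 and 1.78 times on 1, 7 and 2 counts, with 95% Poisson intervals of 0.0241 to 5.30, 1.06 to 5.41 and 0.215 to 6.43, which cover counting error only.

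Even the highest well-counted value sat at the edge of detection. In region 4 the floor was 179.0 counts against 184 for Csn3, whose interval of 2.07 to 2.77 times background includes the floor at 2.33. Of the 210 negative probes there, 8 (3.81%) had as many counts or more. In region 8, 12 of 210 did, and the floor was 2.88 times background. Csn3 lay at the percentile 91.35 of all endogenous probes in region 4 and at 68.65 in region 8, and between 18.5 and 47.1 in the SMA-adjacent regions. In all, 10 of 19965 probes (0.0501%), Csn3 among them, exceeded the floor in region 4 and in no other deeper region. The pattern was defined from Csn3's own values, so this share does not measure how unusual Csn3 is. Some of the 10 came close to the floor elsewhere. For instance, 1 stood at 2.45 times background in region 4 and at 2.43 in region 1, where the floor was 2.47.

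Csn2, the beta-casein gene, had the highest level of the 7 in each SMA-adjacent region. Its counts in SMA-adjacent regions 1, 5, 6, 9 and 10 were 45, 226, 128, 148 and 65, or 1.99, 2.03, 1.99, 1.71 and 1.65 times background. In Pdpn-adjacent regions 4, 7 and 8 they were 164, 10 and 14, or 2.14, 1.46 and 1.79 times. The groups overlapped, and Csn2 stayed under the floor in all the deeper regions, although in region 4 it exceeded the 95th percentile of the negative probes. In the deeper regions 11 to 62 of 210 negative probes had as many counts or more. Its shallow values were 0.952, 2.25 and 1.78 times background in regions 2, 3 and 11.

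The alpha-casein genes were nearer to background. Csn1s1 (alpha-S1-casein) had 29, 120, 104, 83 and 35 counts in SMA-adjacent regions 1, 5, 6, 9 and 10, or 0.888 to 1.62 times background, and 101, 4 and 8 in Pdpn-adjacent regions 4, 7 and 8, or 1.32, 0.582 and 1.02 times. Csn1s2a (an alpha-S2-type casein) had 41, 157, 79, 107 and 52 counts in the same SMA-adjacent regions, or 1.23 to 1.81 times background, and 104, 8 and 14 in the Pdpn-adjacent ones, or 1.36, 1.16 and 1.79 times. The groups overlapped for both, and in region 4 neither exceeded its highest SMA-adjacent level. In the shallow region 3, Csn1s1 stood at 2.63 times background on 7 counts and Csn1s2a at 1.13 times on 3.

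The whey protein genes stayed under the floor in all 11 regions. Wap had 28, 120, 70, 107 and 43 counts in SMA-adjacent regions 1, 5, 6, 9 and 10, or 1.08 to 1.24 times background, and 98, 10 and 3 in Pdpn-adjacent regions 4, 7 and 8, or 1.28, 1.46 and 0.383 times. Lalba had 20, 114, 76, 93 and 37 counts, or 0.884 to 1.18 times, against 80, 10 and 14, or 1.04, 1.46 and 1.79 times. Regions 7 and 8 were above all SMA-adjacent regions for Lalba, on few counts, and region 4, the deepest of the group, was inside their range.

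Glycam1 was the lowest of the 7 in the SMA-adjacent regions and in region 4. It had 12, 58, 36, 61 and 25 counts in SMA-adjacent regions 1, 5, 6, 9 and 10, or 0.522 to 0.707 times background, and 50, 1 and 7 in Pdpn-adjacent regions 4, 7 and 8, or 0.652, 0.146 and 0.894 times. In all the deeper regions it lay below the negative-probe level, and 147 to 210 of 210 negative probes had as many counts or more. Of the 10 markers of lymph node high endothelium 5 were above the floor in at least 1 deeper region and 0 in all of them, and of 15 measured lymphocyte markers 0 were above it in any, against 25% of all probes in at least 1 and 3.11% in all. In edgeR's fit 0 of either list passed in either direction, against 0.01% of all probes. Probes differ in how well they bind, so the order of the 7 genes is an order of probe signals, not of transcript numbers.

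**Figure D2:**
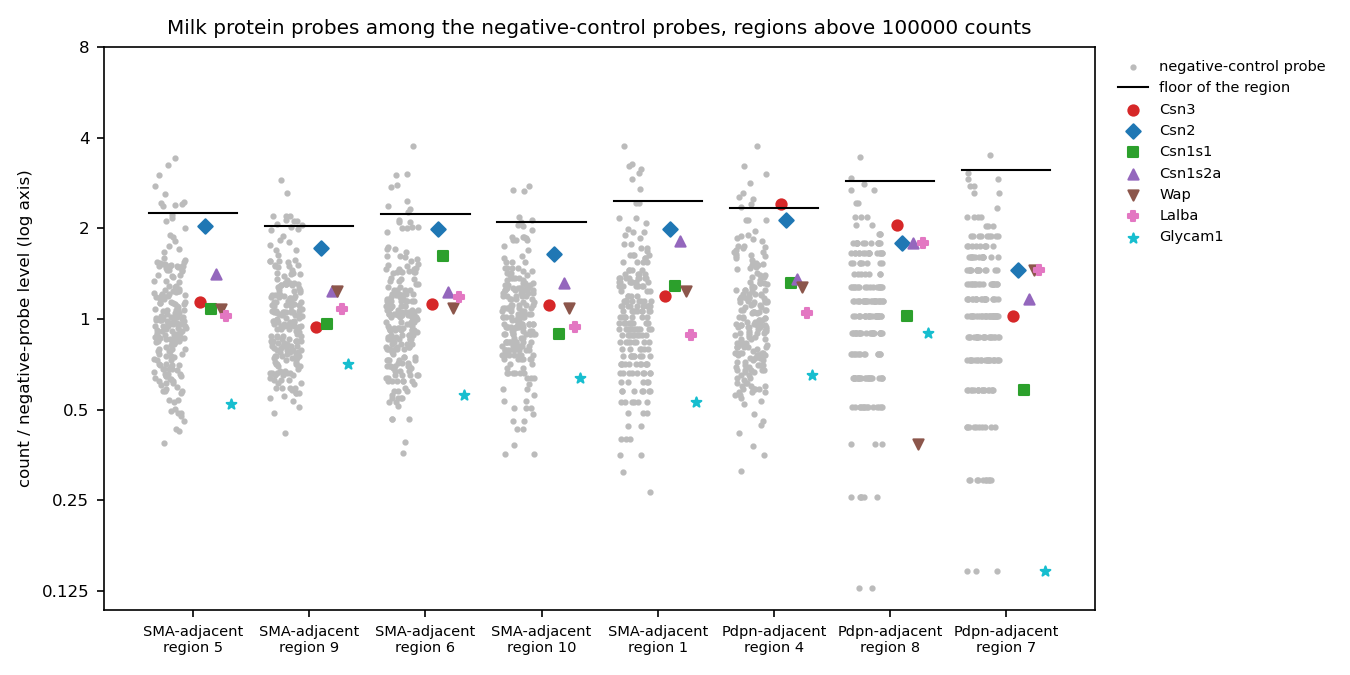
Levels of the 7 milk protein probes (coloured symbols) beside the 210 negative-control probes (grey points) in each region above 100000 counts, as multiples of the negative-probe level on a log axis, with the floor of each region as a black line. The members lie within the spread of the negative probes in every region shown, with Csn2 in the upper part of that spread and Glycam1 in the lower part.

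Between the groups, 1 of the 7 genes passed the test. Counts were compared with the quasi-likelihood test of edgeR over 19935 probes, with adjustment over all of them and a threshold of 0.05, which called 2 probes (0.01%) higher in Pdpn-adjacent regions and 0 lower, and 1202 (6.03%) at an unadjusted p under 0.05. CPM below are counts scaled to a common library total. Csn3 was 1 of the 2 and was higher, at 59.6 ± 22.1 CPM (SD, n = 6) against 34.2 ± 4.15 (SD, n = 5). In edgeR's fit, which leans on the deeper regions and does not give the ratio of these means, the log2 difference was 0.98 ± 0.17 SE. That is a 1.98-fold difference with a 95% interval of 1.55 to 2.51 (edgeR adjusted p = 0.0413). Of the 6 Pdpn-adjacent regions 4 lay above every SMA-adjacent one, so the groups overlapped, as they did for all 7 members. These 4 were regions 4 and 8 and the shallow regions 3 and 11, the last 2 on 7 and 2 counts. The deeper Pdpn-adjacent regions alone averaged 55.0 ± 23.3 CPM (SD, n = 3). Groups stood apart for 89 of 19965 probes (0.446%) with Pdpn-adjacent regions higher and for 78 (0.391%) with them lower, 0.836% in all.

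In edgeR's fit the Csn3 difference rested on region 4. Without it the log2 fold change was 0.58 (edgeR adjusted p = 0.770), and without regions 4 and 8 it was 0.52 (0.997). The call also ended without any of regions 1, 2, 3, 6, 9, 10 and 11, with log2 fold changes of 0.90 to 0.99 and edgeR adjusted p-values of 0.0528 to 0.123, and it held without region 5, 7 or 8. It ended as well in the deeper regions alone (0.97, edgeR adjusted p = 0.0865), with libraries scaled to their negative probes (0.93, 0.140) and with limma-voom (0.63, limma adjusted p = 0.152). A test that weights all regions alike, the exact two-sided permutation of the difference in mean log2 CPM over all 462 ways to choose the groups, gave Csn3 a difference of 0.69 and p = 0.0368, and an exact permutation adjusted p of 0.621 over all 19965 probes. That difference was 0.60 without region 4, 0.57 without region 3 and at most 0.84 with any 1 region left out. Its size thus did not rest on region 4 alone, but regions 2, 3 and 11, on 1, 7 and 2 counts, weigh as much as the others. In region 2 Csn3 stood at 1, the lowest value in the table. That is 37.5 CPM there, above the SMA-adjacent mean of Csn3, 34.2, and without region 2 the permutation difference was 0.81. The exact permutation p was 0.0714 without region 4 and 0.0159 to 0.0810 with any 1 region left out. It was 0.0714 in the deeper regions alone and 0.0693 with counts scaled to the negative probes. The permutation test called 0 probes after adjustment and 1579 (7.91%) before it. Since regions share mice, the p-values here may be smaller than those of a test over mice.

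The other 6 genes did not pass. In edgeR's fit Csn2 differed by 0.07 ± 0.17 SE on the log2 scale, a 1.05-fold ratio with an interval of 0.823 to 1.35. Its mean CPM stood in the other order, at 57.3 ± 15.5 (SD, n = 6) against 58.3 ± 8.79 (SD, n = 5). The fit leans on the deeper regions and these means do not. Csn1s1 and Csn1s2a had ratios of 1.10 (0.812 to 1.50) and 1.02 (0.814 to 1.28), and Wap, Lalba and Glycam1 of 1.04 (0.810 to 1.34), 1.17 (0.871 to 1.58) and 1.13 (0.823 to 1.56). The edgeR adjusted p-values of these 6 ran from 0.987 to 1.00. Every ratio includes the background counts of the probe. The Lalba estimate moved with the settings: its log2 fold change was 0.23 here, 0.54 without region 4 (edgeR adjusted p = 0.774) and 0.72 with limma-voom (limma adjusted p = 0.102), above the upper bound of its interval, 0.66. Whether Csn3 differs from the other members in its fold change was not tested. The median over the 7 was 0.14 on the log2 scale, against 0.01 over all probes tested. All 7 estimates were above 0, as were 51.2% of all probes. In mean log2 CPM, where every region counts alike, 3 of them (Csn2, Csn1s2a and Wap) were below 0. By the exact permutation test Lalba had p = 0.0455 (adjusted p = 0.628) for a mean difference of 0.42, and the other 5 had p-values of 0.344 to 0.862. The exact permutation p of Lalba was 0.180 with counts scaled to the negative probes and 0.0893 in the deeper regions alone. In the shallow regions 2 and 11 Lalba stood at 1, the lowest value in the table. There 1 count is 37.5 and 34.3 CPM, above the SMA-adjacent mean of Lalba, 31.7.

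**Figure D3:**
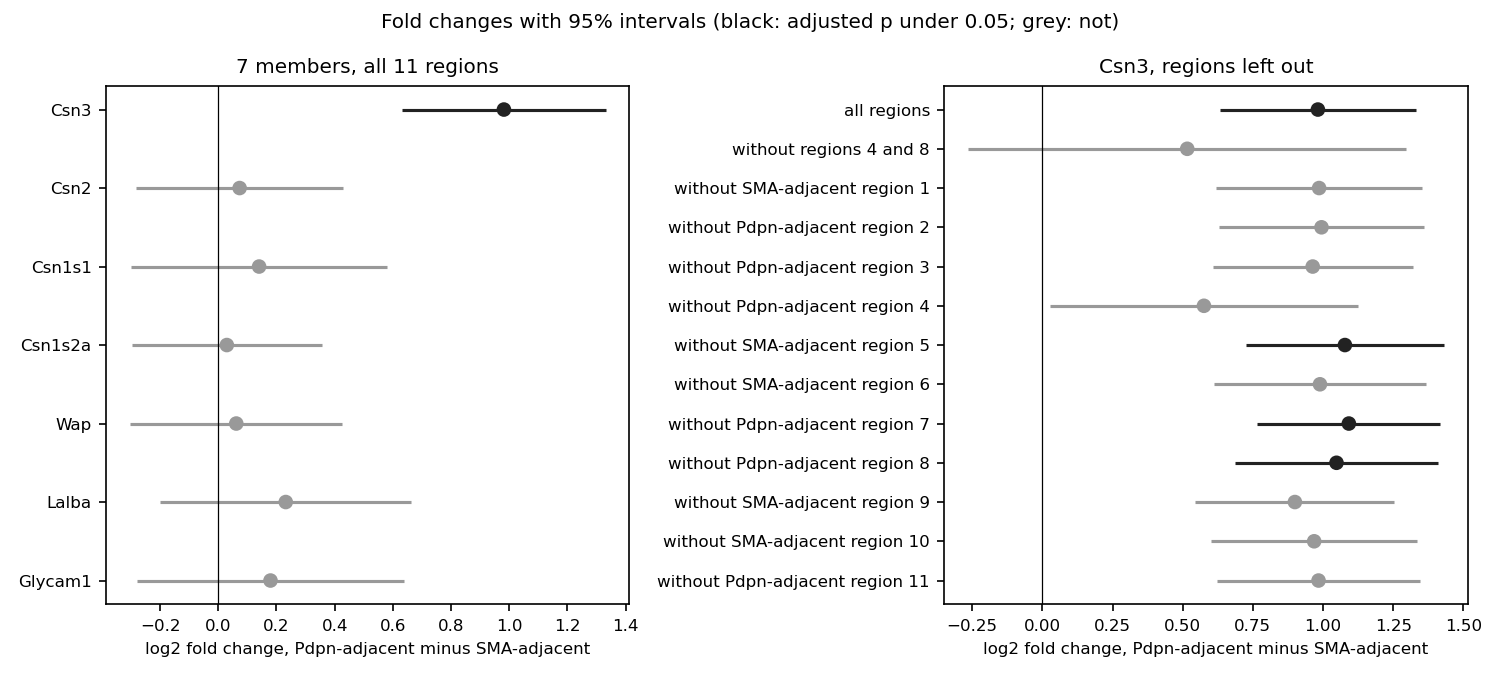
Left, edgeR log2 fold changes of the 7 genes with 95% intervals over all 11 regions; right, that of Csn3 when regions are left out. Black marks an adjusted p under 0.05 and grey the rest: Csn3 alone is black on the left, and on the right its estimate falls from 0.98 to 0.58 without region 4.

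The casein probes can be compared within a region, where no scaling between libraries enters. Csn3 made up 52.9% of the Csn3 and Csn2 counts in region 4 (exact Clopper-Pearson 95% interval 47.5 to 58.2%). It made up 35.4 to 40.4% in the 5 SMA-adjacent regions, and the intervals of regions 5, 6 and 9 (31.0 to 41.2%, 29.4 to 43.1% and 29.2 to 41.9%) lay below that of region 4. Those of regions 1 and 10 reached 49.7 and 50.2% and overlapped it. Region 8 gave 53.3% (34.3 to 71.7%) and region 7 41.2% (18.4 to 67.1%). Against Csn1s2a, Csn3 held 63.9% (58.0 to 69.4%) in region 4 and 39.7 to 47.7% in the SMA-adjacent regions, and the upper bounds of the latter reached 56.3%. So in region 4 the share of Csn3 was high against Csn2 and against Csn1s2a, a description with counting error only. Region 4 has the highest Csn3 level of the deeper regions, so a high share there is partly fixed by that choice. The share against Csn1s1 was not computed.

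Some markers of luminal epithelium were high where Csn3 was high. Among 3853 probes above the floor in at least 2 of the deeper regions, the 5 whose log2 CPM followed Csn3 most closely over these 8 regions were Krt19 (Pearson r = 0.97), Mlph (0.93), Epcam (0.93), Krt8 (0.93) and Bok (0.93). The median over all 3853 was -0.20 and the 95th percentile 0.47. Krt19 and Krt8 are keratins of simple epithelium and Epcam is an epithelial adhesion molecule. In regions 4 and 8 Krt19 stood at 4.32 and 4.60 times the negative-probe level and in the other 6 at 1.75 to 2.61, Epcam at 4.46 and 5.11 against 1.89 to 2.61, and Krt8 at 3.47 and 4.22 against 1.42 to 1.86. Krt8 and Mlph passed the filter only through regions 4 and 8, where Csn3 was high, so their likeness is partly fixed by the choice of probes. The points share their libraries, and the likeness is a description without a p. Over all 11 regions r was 0.86 for Mlph, 0.62 for Krt19, 0.14 for Epcam, 0.06 for Krt8 and -0.55 for Bok. Between Csn3 and the other 6 members r over the 8 regions was -0.26 to 0.44.

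**Figure D4:**
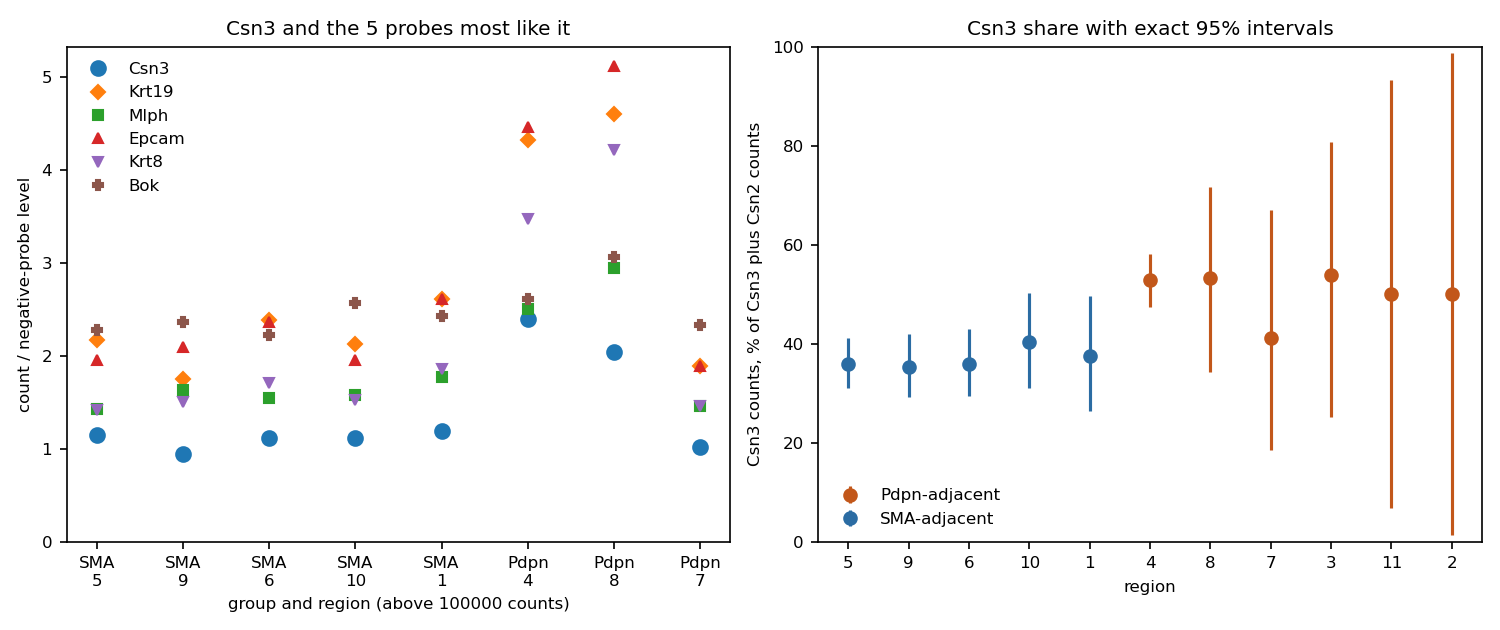
Left, levels of Csn3 and of the 5 probes most like it in each region above 100000 counts, as multiples of the negative-probe level: Csn3, Krt19, Epcam, Krt8, Mlph and Bok are each highest in regions 4 and 8. Right, Csn3 as a percentage of Csn3 plus Csn2 counts in every region with exact 95% intervals, 52.9% in region 4 and 35.4 to 40.4% in the SMA-adjacent regions.

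The mean of the luminal list was highest in the same 2 regions. This mean level over 18 markers reached 2.17 times background in region 4 and 2.67 in region 8, with 1.33 in region 7, 1.27 to 1.46 in the SMA-adjacent regions and 0.988 to 1.31 in the shallow ones. Region 8 was also high for other probes. Its median endogenous probe stood at 1.53 times background, the highest of all regions, against 1.23 in region 4. Means of the prolactin and alveolar (2.57), milk secretion (2.36) and lymphocyte lists (1.55) were highest there too, those of fibroblasts and adipocytes not. For 13 of the 18 luminal markers, and not for the other 5, regions 4 and 8 were the highest of the deeper regions, as they were for 626 of all 19965 probes (3.14%) and, of the members, for Csn3 alone. In edgeR's fit 0 of the 18 passed in either direction, against 0.01% of all probes. Their median log2 fold change was 0.57 against 0.01 over all probes. The 3 of smallest p were the luminal factor Foxa1 (0.75 ± 0.14 SE, edgeR adjusted p = 0.0620), the chloride cotransporter Slc12a2 (0.91 ± 0.18 SE, 0.0668) and the tight junction gene Cldn4 (0.78 ± 0.16 SE, 0.0781). Of the 18 markers, 6 were above the floor in at least 1 deeper region and 0 in all, against 25% and 3.11% of all probes. Foxa1 and Cldn4 were above it in 0 of the deeper regions and Slc12a2 in 2. The part of epithelial transcripts in the Csn3 difference was not tested. In regions such as these, more cells of a type and more RNA per cell cannot be told apart. Basal epithelial markers averaged 1.40 times background in region 4, 2.57 in region 8, 2.16 in region 7, 1.02 to 2.54 in the shallow regions and 2.34 to 9.80 in SMA-adjacent regions. Their list includes Acta2, whose protein was stained to place the SMA-adjacent regions. Of its 14 genes 0 passed in either direction, against 0.01% of all probes (median log2 fold change 0.04). The high SMA-adjacent means rest largely on the muscle contraction genes Acta2, Myh11 and Mylk. These stood at 87.5, 23.1 and 9.01 times background in region 9 and at 3.56, 0.952 and 0.561 in region 4. Krt5, Krt14 and Trp63 of the same list were at 0.394, 0.857 and 2.02 times in region 9 and at 0.443, 0.952 and 2.02 in region 4. In the shallow region 11 Krt14 stood at 16.9 times background, on 19 counts.

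Genes that drive milk protein transcription were measured beside them. Of 24 genes of prolactin signalling and alveolar differentiation 0 passed in either direction, against 0.01% of all probes. Their median log2 fold change was -0.09. Prlr, the prolactin receptor, averaged 64.8 ± 24.4 CPM (SD, n = 6) against 46.1 ± 9.97 (SD, n = 5). Its log2 fold change in edgeR's fit, which is not the ratio of these means, was 0.88 ± 0.17 SE (edgeR adjusted p = 0.0620, exact permutation p = 0.197). Prlr stood at 2.87 and 3.19 times background in regions 4 and 8. Gata3 had 0.72 ± 0.19 SE (edgeR adjusted p = 0.240) and Pgr, the progesterone receptor, 0.58 ± 0.17 SE (0.385). In the deeper regions 2 of the 24, Nfia and Ybx1, were above the floor in all 8, against 3.11% of all probes. Stat5b was above it in 6 of 8 and Stat5a in 4 of 8, at 2.26 to 3.23 and 1.96 to 3.07 times background. Elf5 was above it in 0 of 8, at 1.37 to 2.04 times.

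Of 24 other genes of milk secretion 0 passed in either direction, against 0.01% of all probes (median log2 fold change 0.07). Of these 24, 10 were above the floor in at least 1 deeper region and 1 in all 8, against 25% and 3.11% of all probes. Plin2, a lipid droplet coat protein that adipocytes also make, was above the floor in all 8 deeper regions, Xdh, an enzyme of milk fat secretion, and Trf, transferrin, in 7, and the milk fat globule protein Mfge8 in 6. Those 4 were picked after their values were seen. The genes of smallest p were Lcn2, lipocalin 2 (log2 fold change 0.78 ± 0.20 SE, edgeR adjusted p = 0.205), Wfdc18, a whey-type protein (0.54 ± 0.18 SE, 0.589), and Btn1a1, butyrophilin of the milk fat globule (0.50 ± 0.17 SE, 0.589). Lcn2 and Btn1a1 were above the floor in 0 of the deeper regions and Wfdc18 in 1, region 8, at 2.94 times background. B4galt1, the partner of Lalba in lactose synthesis, was above it in 3 of 8, at 1.54 to 2.81 times.

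Of 17 genes chosen around the casein cluster 14 were measured. Of these 0 passed in either direction, against 0.01% of all probes, and their median log2 fold change was 0.04. In 0 of the 14 were regions 4 and 8 the highest of the deeper regions, against 3.14% of all probes. In a list of 14 genes, 0 is close to that share. Csn1s2b, the casein gene next to Csn1s2a, stood at 1.97 times background in region 4, 2.30 in region 8 and 1.56 to 2.24 in the other deeper ones (log2 fold change 0.16, edgeR adjusted p = 1.00). Odam and Amtn, genes of tooth enamel, were above the floor in 0 of the deeper regions and Jchain, the joining chain of antibodies, in 1.

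Markers of the other cell types that the areas could hold also had 0 calls in either direction. The fit called 0.01% of all probes, so 0 calls in lists of this size are close to that share. Median log2 fold changes were -0.58 for 13 fibroblast markers, -0.50 for 14 adipocyte markers, -0.45 for 13 of blood endothelium, -0.16 for 13 of lymphatic endothelium, -0.20 for 12 of macrophages, -0.08 for those of lymph node high endothelium and -0.02 for the lymphocyte markers. The 13 markers of fast skeletal muscle had a median of 1.88, and their mean level was 69.1 times background in Pdpn-adjacent region 3, 32.3 in region 7, 1.07 in region 4 and 4.31 in region 8. Their part in the milk protein values was not tested. The Csn3 estimate without region 7 was 1.09 (edgeR adjusted p = 0.00430) and without region 3 0.96 (0.0528).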

How the data were processed

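The deposited values are counts for every probe in every region. They are whole numbers of 1 or more whose totals differ between regions, so they were taken as not normalized. Per the file headers, the coordinates of probes belong to GRCm38.p6. The steps from reads to counts are not given in the sources used here. All 11 labelled columns were used. Regions were grouped by their titles, and the labels name 12 collected areas and 3 mice.

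The 7 members and 13 gene lists were chosen with earlier results of these data known. Library sizes and tests used the endogenous probes without the 210 negative controls. The quasi-likelihood test of edgeR 4.0.16 in R 4.3.3 ran on 19935 probes kept by filterByExpr, with TMM scaling, two-sided, and Benjamini-Hochberg adjustment over all of them. The SE is that implied by its p. DESeq2 1.42.0 and limma 3.58.1 were alternatives. Exact permutation tests used log2 CPM with a prior count of 2, and their smallest possible p is 0.00216. Intervals on counts cover counting error only. Genes named were the members, the 3 of smallest p per list, and the 5 probes most correlated with Csn3. All other genes named (Stat5a, Stat5b, Elf5, Nfia, Ybx1, B4galt1, Plin2, Xdh, Trf, Mfge8, Csn1s2b, Ltf, Aldh1a3, Pigr, Lpo, Krt5, Krt14 and Trp63) were chosen from the lists after their values were seen. Tests were tested on simulated data. Promoter sequences are RefSeq's.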

Additional observations from a re-analysis of the deposited data

Results flagged for a closer look

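In 2 of the 14 sets of values (7 genes in each group) a region stood far from the rest of its group by Dixon's criterion. Chance meets it in about 1 set in 20 where values are normal and equally variable. The regions differ widely in depth, so that rate need not hold here. Csn1s1 in Pdpn-adjacent region 3 was at 86.4 CPM, with the next region at 43.5. It rests on 7 counts in a library of 81760. Glycam1 in Pdpn-adjacent region 11 was at 103 CPM, with the next region at 37.5, on 3 counts in a library of 30316, where 1 count stands at 34.3 CPM.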

How the results depend on the processing

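The members' low levels held under each definition of the floor tried: 4 values above it became 3 with the 95th percentile (in the deeper regions 1 became 2, with Csn2 in region 4) and 2 with the arithmetic mean plus 2 SDs of the negative probes, both chosen after seeing the data. The single call among the members became 0 with limma-voom, negative-probe scaling, background subtraction, deeper regions only and without regions 4 and 8, and was 0 to 1 with 1 region left out. The Csn3 log2 fold change stayed above 0 in its 18 alternatives. It lost its call at 0.63 (limma-voom), 0.93 (negative-probe scaling), 0.97 (deeper regions) and 0.52 (without regions 4 and 8), and ran from 0.58 to 1.09 with 1 region left out. It was called with RLE scaling, no filter, and 1 taken from every count. Background subtraction left Csn3 out by its filter, and DESeq2 gave no member an adjusted p. Over all probes, the 2 higher calls became 1 (DESeq2, negative-probe scaling, deeper regions), 0 (limma-voom, background subtraction), 25 (1 taken from every count) and 13 (without regions 4 and 8), and 1 to 12 with 1 region left out. The 0 lower calls became 16 (DESeq2), 32 (1 taken) and 0 to 41 (1 region left out, 41 without region 5). The cause was not tested.

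The Lalba log2 fold change ran from 0.18 to 0.72 over its alternatives. Signs turned only among differences that were not called. For log2 fold changes, Csn2 came to -0.0886 (limma-voom), -0.0937 (background subtraction) and -0.105 (without regions 4 and 8), Csn1s2a to -0.0091 (limma-voom), -0.0055 (negative-probe scaling), -0.0194 (1 taken), -0.18 (background subtraction) and -0.20 (without regions 4 and 8), Wap to -0.20 (limma-voom) and Glycam1 to -0.12 (without regions 4 and 8). With 1 region left out they ran from -0.20 to 0.18 for Csn2, -0.15 to 0.31 for Csn1s1, -0.0436 to 0.108 for Csn1s2a and -0.44 to 0.22 for Wap. Mean log2 CPM differences reached -0.0535 (scaled to negative probes) and -0.32 (deeper regions) for Csn1s1 and -0.36 (deeper regions) for Glycam1. With 1 region left out they ran from -0.14 to 0.0531 for Csn2, -0.18 to 0.24 for Csn1s1, -0.38 to 0.0331 for Wap and -0.12 to 0.69 for Glycam1. No paired analysis was possible because the mouse of each region is not given. Depth limits regions 2, 3 and 11, where 1 count is 12.3 to 37.5 CPM.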

Other observations

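A few genes stood high in region 8 and were picked for that after their values were seen. Ltf, lactoferrin, was at 5.62 times background there and at 1.06 to 1.31 times in the other 7 regions above 100000 counts. Lcn2 was at 2.43 times in region 8, 1.59 in region 4 and 0.437 to 1.19 in the rest. Aldh1a3, a marker of luminal progenitors, was at 3.19 times in region 8 and 1.09 to 1.46 in the others. Other milk genes went both ways there. Wap was at 0.383 times and Pigr, which carries antibodies into milk, at 0.256, on 3 and 2 counts, and Lpo, lactoperoxidase, at 0.894. Trf, Mfge8, Plin2 and Wfdc18 were at 5.88, 5.49, 4.86 and 2.94 times. The 24 other genes of milk secretion averaged 2.36 times background in region 8, the highest of the 11 regions. Csn3 in that region was 2.04 times background on 16 counts. In edgeR's fit of these genes only Csn3 passed (Ltf log2 fold change 0.73, edgeR adjusted p = 0.645).

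The summed counts of the 7 members were 0.0209 to 0.0299% of all counts in SMA-adjacent regions and 0.0221 to 0.0379% in Pdpn-adjacent ones. The ranges overlap, and most of either sum is at the level of the negative-control probes.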
